A study of Bos taurus with 15 samples.

Results

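Among 2678 genes with a strong oocyte signal, 24 genes, or 0.896%, had a signal at least 1.5 log2 units below the oocyte mean on the 2-cell, 4-cell, 8-cell and 16-cell arrays and in the morula mean. They were 0.262% of the 9155 genes named on the array. The rule worked on the log2 level, log2(intensity + 16), took 1 probe set per named gene, the one with the highest mean level over all arrays, and asked for an oocyte mean level of at least 9. Of the 2678 genes, 442 lay at least 1.5 below the oocyte mean at the 2-cell stage. Adding the 4-cell stage left 161 genes, the 8-cell stage 107, the 16-cell stage 45 and the morula 24. The transcripts were thus selected on their oocyte, 2-cell to 16-cell and morula values, and those values are given as a description with no test. The choice of probe set also used the 1-cell and blastocyst arrays, which bears on the 9 genes with several probe sets. With the probe set chosen without those arrays, a check made after seeing the data, 22 genes met the rule, all among the 24, and FBXO9 and VCAN did not.

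The series measured RNA of bovine (Bos taurus) oocytes and of embryos fertilized and cultured in vitro on 15 Affymetrix arrays. There were 3 oocyte arrays, 2 of 1-cell embryos, 1 each of 2-cell, 4-cell, 8-cell and 16-cell embryos, 3 of morulae and 3 of blastocysts. All groups came from oocytes aspirated from ovarian follicles with their cumulus, the layer of somatic cells around the oocyte. The sample titles do not say whether the oocyte arrays held immature or matured oocytes. For the embryos, oocytes were matured and fertilized in vitro under 1 protocol, with no other treatment in any group. In that protocol the cumulus was vortexed off after fertilization, and embryos were then grown in SOF, a culture medium for cattle embryos. The labels call the replicates biological, and do not give how many oocytes or embryos went into an array, how oocyte samples were stripped of cumulus, or which bulls and cows they came from.

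A growing oocyte stores messenger RNA that serves meiosis, fertilization and the first cleavages, when the embryo's own genome makes little RNA. The stored RNA is then cleared, partly by factors already in the egg that shorten poly(A) tails and partly by products of the activated embryonic genome, which in cattle comes fully into use around the 8-cell to 16-cell stage. Each intensity is a transcript's share of RNA amplified from the poly(A) tail, so fewer molecules per embryo and shorter tails cannot be told apart.

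Arrays of 1 stage did not all lie equally close. Signal from bacterial RNA added as a labelling control was present on 9 arrays, namely oocyte 2 and 3, 1-cell 2, the arrays of the 2-cell, 4-cell, 8-cell and 16-cell stages, morula 3 and blastocyst 3, and low on the rest. GAPDH signal from the middle of the transcript divided by that from its 3′ end, a measure of length after amplification, was 0.0374 to 0.237 in oocytes, 0.257 and 0.122 in 1-cell embryos, 0.0571 to 0.237 on the 4 single cleavage arrays, 0.100 to 0.625 in morulae and 0.339 to 0.643 in blastocysts. The same ratio of cyclophilin was 0.0141 to 0.102 in oocytes, 0.134 and 0.0628 in 1-cell embryos and 0.0115 to 0.562 on the cleavage arrays. It was 0.178 to 0.322 in morulae and 0.499 to 0.766 in blastocysts. That of eIF-4E was 0.0388 to 0.235 in oocytes, 0.0597 and 0.246 in 1-cell embryos, 0.0853 to 0.272 on the cleavage arrays, 0.0636 to 0.887 in morulae and 0.0490 to 0.163 in blastocysts. The GAPDH and cyclophilin ratios of all blastocyst arrays thus lay above those of both 1-cell arrays, while those of eIF-4E overlapped. The part of these measures in the results was not tested. With the arrays numbered 3 left out, a check chosen after seeing the data, 38 genes met the rule, 21 of them among the 24. Without oocyte 3 alone, 44 genes met it, 23 of them among the 24. Within the arrays that carried the added control RNA, 26 genes met it and 18 were shared. The 16-cell array stood at least 2 log2 units above every other array at 75 named genes, against 15 to 26 for the other single arrays. In the other direction, the 8-cell array stood at least 2 below every other array at 83 named genes. That number was 37 for the 2-cell, 3 for the 4-cell and 21 for the 16-cell array. With the 16-cell array left out of the rule, also chosen after seeing the data, 31 genes met it, the 24 among them. The other single arrays were not left out in turn. NADK2, NRIP3, HSD11B2, DTWD1, MAPK8, SLC18A2 and GAA met it under each of the 16 alternatives tried, and every other member under at least 10.

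The median distance from the oocyte mean across the 24 transcripts was -0.82 at the 1-cell stage, -2.91 at the 2-cell, -3.09 at the 4-cell, -3.40 at the 8-cell and -3.85 at the 16-cell stage, then -2.51 in the morula and -2.61 in the blastocyst. Over all 2678 genes the same medians were 0.07, -0.15, -0.03, -0.24, -0.10, -0.38 and -0.44. Single stages often lay that low: 16.5% of the 2678 genes were at least 1.5 below the oocyte at the 2-cell stage, 11.1% at the 4-cell, 22.9% at the 8-cell and 21.2% at the 16-cell stage, and 27.4% in the morula. The 24 were the genes that met all 5 conditions. In each of the 24 the lowest oocyte array lay above the highest of the 4 cleavage arrays, and in 21 it also lay above the highest morula array, the exceptions being CREG1, HPS5 and PDXDC1. These 2 counts use the values that chose the members, so they largely follow from the rule, and no share over the 2678 genes was computed. The lowest stage was the 16-cell embryo for 13 transcripts, the 2-cell for 4, the 4-cell for 4, the 8-cell for 2, and the morula for NRIP3.

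**Figure D1:**
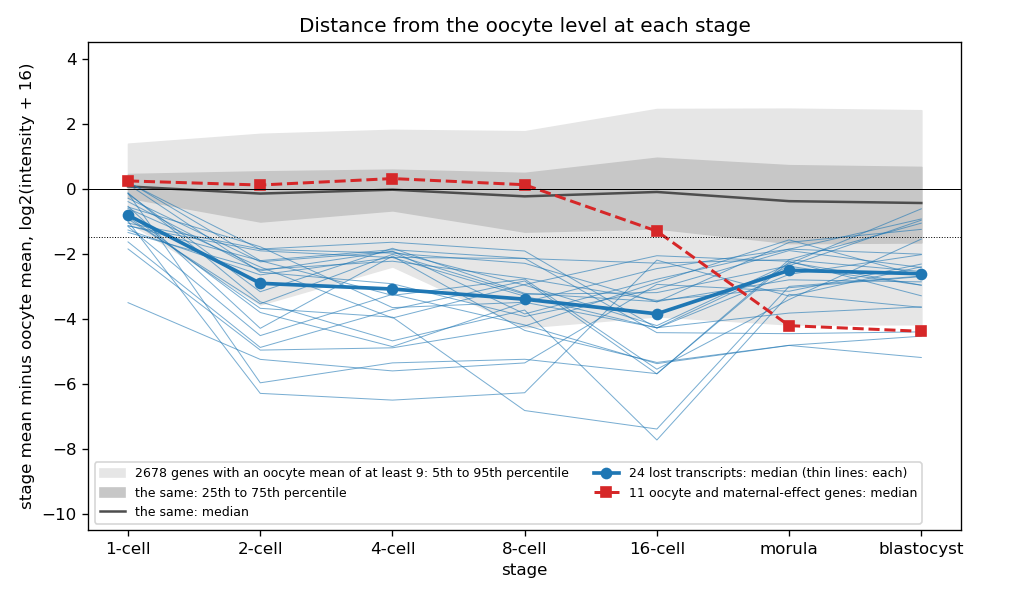
Stage mean minus oocyte mean on the log2(intensity + 16) scale, by stage. Thin blue lines are the 24 transcripts and the thick blue line their median. Grey bands and the grey line give the percentiles and the median of the 2678 genes with an oocyte mean of at least 9, and the red line the median of 11 oocyte and maternal-effect genes. The blue median lies at -2.91 at the 2-cell stage, where the red median is 0.11; the dotted line marks -1.5, the distance the rule asked for.

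Genes known for their role in the oocyte were also followed through cleavage. Of 54 listed oocyte and maternal-effect genes 12 were measured and 11 had an oocyte mean of at least 9, among them those for the zona pellucida proteins ZP2, ZP3 and ZP4, the secreted growth factors GDF9 and BMP15, and the meiotic kinase MOS. None of the 11 was a member, beside 0.896% of the 2678, and the nearest, UCHL1, had a smallest distance below the oocyte of 0.19. The median of the 11 was 0.24, 0.11, 0.31 and 0.12 above the oocyte from the 1-cell to the 8-cell stage, -1.31 at the 16-cell stage, -4.21 in the morula and -4.39 in the blastocyst. The medians of all 2678 genes given above lay near it to the 8-cell stage and closer to the oocyte after it. In blastocysts 10 of the 12 were lower than in 1-cell embryos by limma and 0 were higher, with a median difference of -5.10. Of the 2678 genes 18.9% were lower and 8.03% higher, with a median of -0.52.

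The 1-cell and blastocyst arrays entered none of the level and distance conditions of the rule, only the choice of probe set, and blastocyst minus 1-cell was the only test made. Of the 24 transcripts 7, or 29.2%, were lower in blastocysts at an adjusted p under 0.05 (limma, Benjamini-Hochberg over 24016 probe sets), namely NRIP3, HSD11B2, SLC18A2, NADK2, NEB, VCAN and TJAP1. The background was 18.9% of the 2678 genes with a strong oocyte signal and 8.36% of all named genes. None was higher in blastocysts, against 8.03% of the 2678 and 12.7% of all named genes. At an unadjusted p under 0.05, 8 transcripts were lower and 0 higher, against 30.5% and 13.5% of the 2678. Without 1-cell array 2 the count was 4, and with the arrays numbered 3 left out it was 10, and the share of the 2678 moved with it, to 9.11% and 28.5% in that order. Of the 22 genes that met the rule with the probe set chosen without the 1-cell and blastocyst arrays, 6 were lower and 0 higher.

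The blastocyst mean lay below the 1-cell mean in 22 of the 24, with GDPD1 and GAA as the exceptions. In 16, or 66.7%, all 3 blastocyst arrays lay below both 1-cell arrays, as they did in 41.8% of the 2678 genes, and in 8 the arrays overlapped. The median difference was -1.42 for the 24, -0.52 for the 2678 and 0.04 for all named genes. Where the comparison is with the 735 genes whose morula mean was also at least 1.5 below the oocyte, 52.9% of these were lower in blastocysts and their median difference was -2.50, so both the share and the median of the 24 were smaller in size. Within arrays of 1 kind, 21 of 24 were lower in blastocyst 3 than in 1-cell 2, which carried the added control RNA, with a median of -2.44. In the mean of blastocysts 1 and 2, 19 of 24 were lower than in 1-cell 1, with a median of -1.62. Each kind held a single 1-cell array. For the 22, 21 and 19 lower means no share of the 2678 genes was computed.

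**Figure D2:**
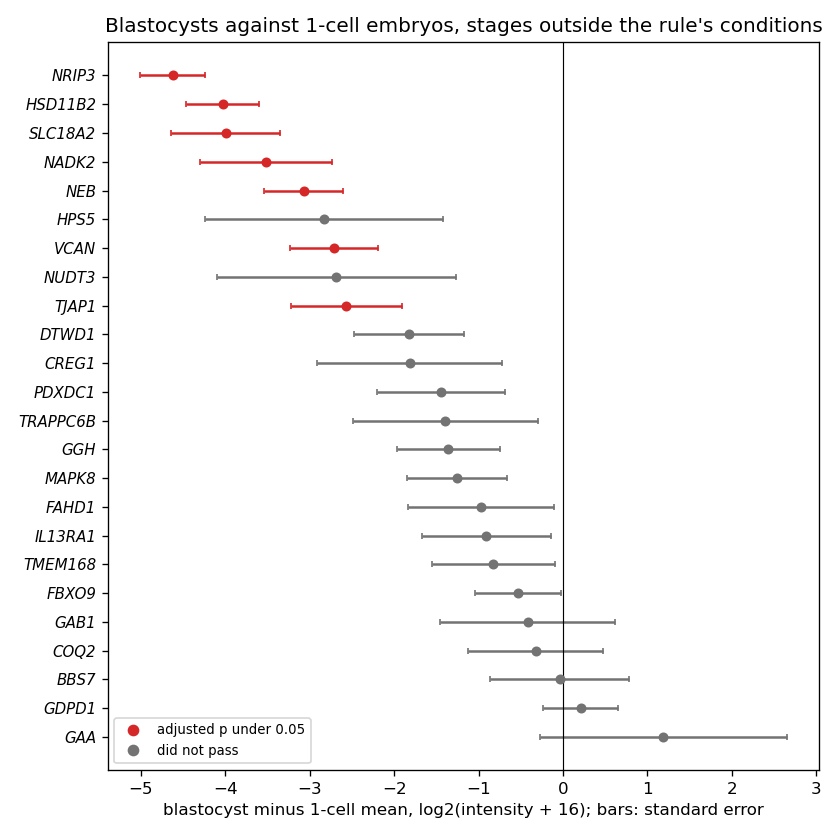
Blastocyst mean minus 1-cell mean of each transcript on the log2(intensity + 16) scale, with standard errors from limma. Red points passed an adjusted p of 0.05 and grey points did not. The 7 that passed lie between -4.62 for NRIP3 and -2.56 for TJAP1; HPS5 and NUDT3 lie as low but have standard errors above 1.

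The next measures set the stages against the oocyte arrays that chose the members, and are given with no test. The 1-cell mean lay below the oocyte mean in 21 of the 24 (43.8% of the 2678 genes), the exceptions being NRIP3, PDXDC1 and TJAP1, and both 1-cell arrays were at least 1.5 below it in 2, GAA and TMEM168 (0.859% of the 2678). That count was 1 without oocyte 1, 1 without oocyte 2 and 4 without 1-cell 2. The 2-cell array lay below both 1-cell arrays in 23 of the 24, with GAA as the exception (49.5% of the 2678), and the median 2-cell minus 1-cell difference was -2.52, against -0.22 for the 2678. The rule also chose the members for a low 2-cell array, so this count and this median are favoured by the rule. In blastocysts the mean was back within 1.5 of the oocyte mean in 5 of the 24, COQ2, FBXO9, BBS7, GDPD1 and PDXDC1, as it was in 72.7% of the 2678. The word lost in a description of these transcripts thus refers to cleavage and the morula mean, and means a low signal rather than none.

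By role, as known from human and mouse, 8 of the 24 encode enzymes of metabolism or nucleotide handling, 6 lysosomal and vesicle proteins, 4 signalling and protein turnover factors, and 4 matrix, cytoskeleton, junction or cilium proteins, while for NRIP3 and TMEM168 no role is given here. Lower in blastocysts were 2 of the 8 enzymes, 1 of the 6 lysosomal and vesicle proteins, 0 of the 4 signalling and turnover factors, 3 of the 4 structural proteins, and NRIP3. The share of the 2678 genes was 18.9%. Intensities below are in the order of the replicate numbers and, for the cleavage arrays, of the 2-cell, 4-cell, 8-cell and 16-cell stages.

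**Figure D3:**
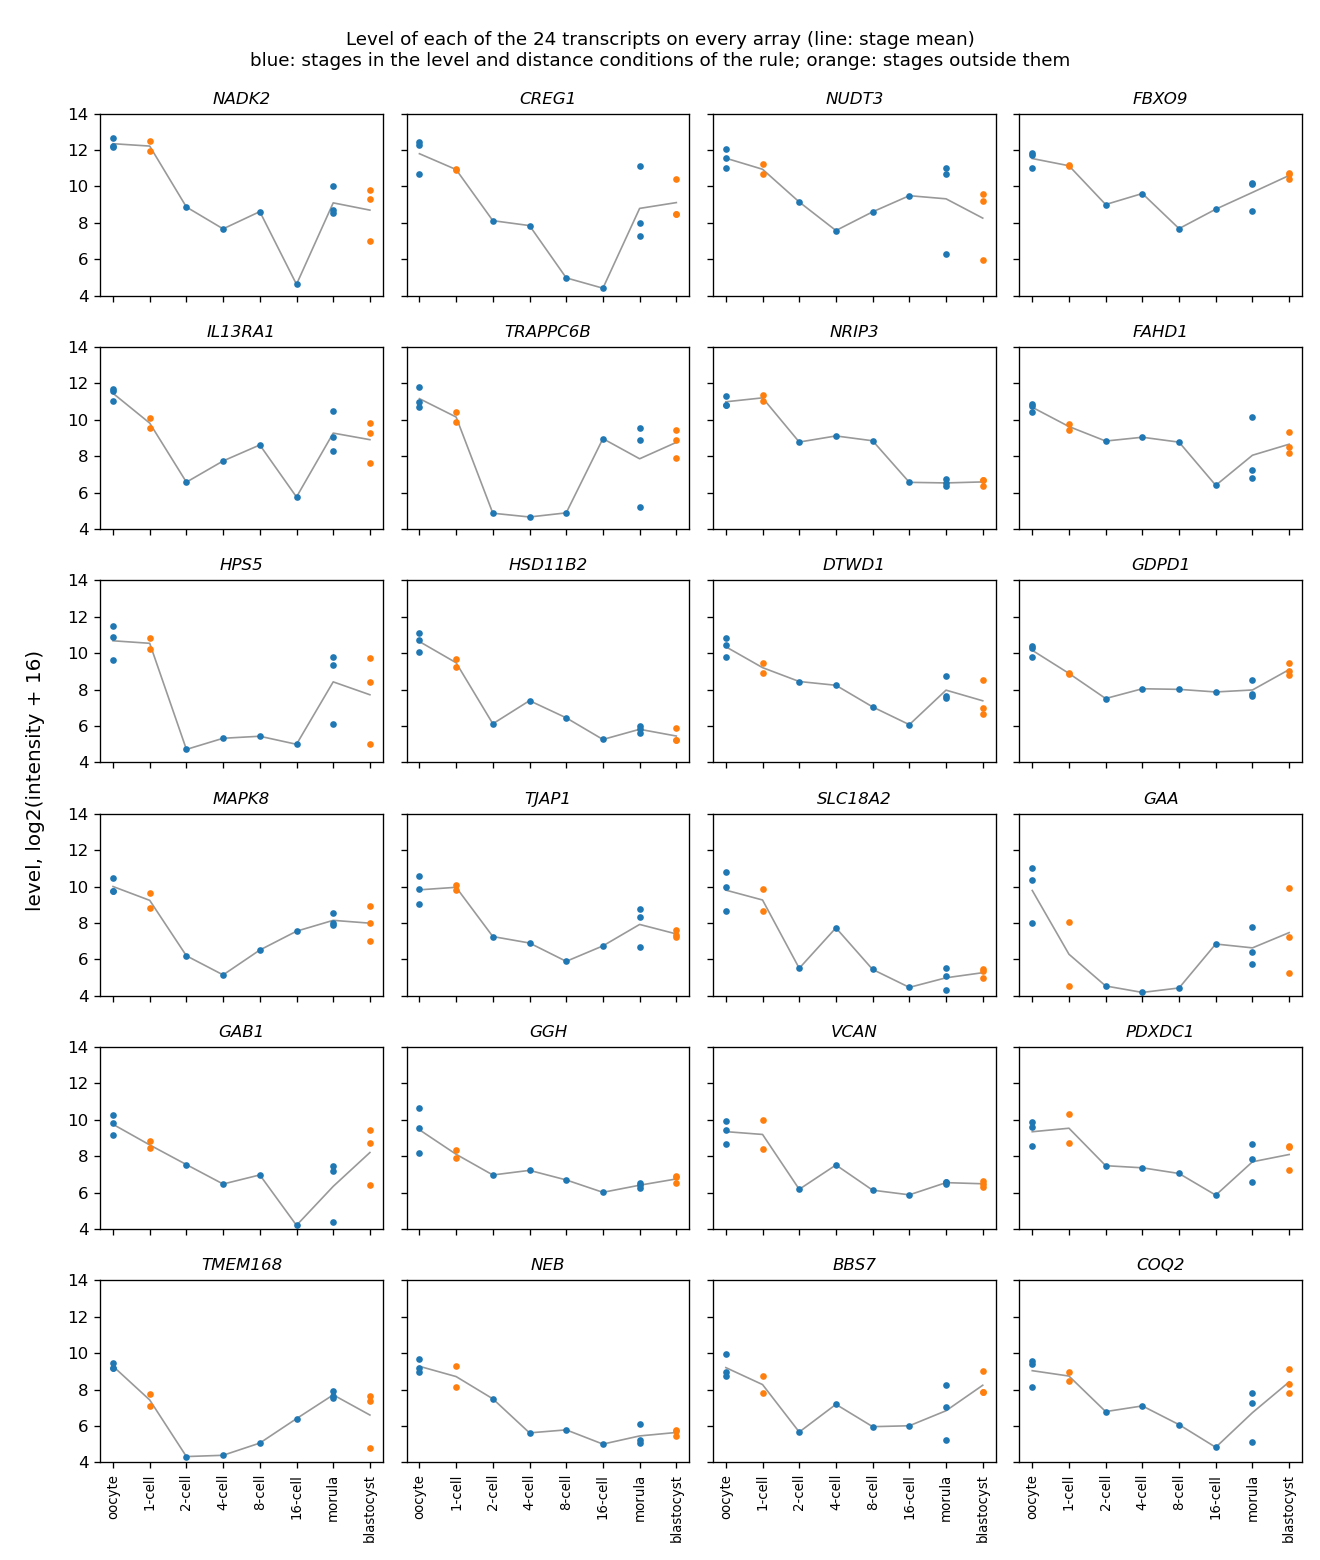
Level of each of the 24 transcripts, log2(intensity + 16), on every array from the oocyte to the blastocyst, 1 panel per gene. Points are arrays, blue for the stages in the level and distance conditions of the rule and orange for the others, and the line joins stage means. NRIP3, HSD11B2, SLC18A2, NEB, GGH and VCAN stay low to the blastocyst, while FBXO9, GDPD1, BBS7, COQ2 and PDXDC1 come back to within 1.5 of the oocyte mean.

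Among the enzymes, HSD11B2, which converts active cortisol to cortisone, gave intensities of 1058, 2178 and 1698 in oocytes, 594 and 811 in 1-cell embryos and 53.5, 152, 71.2 and 22.2 through cleavage. It gave 33.2, 48.2 and 40.6 in morulae and 21.3, 43.9 and 21.00 in blastocysts. Both 1-cell arrays lay below all oocyte arrays, and every array after the 1-cell stage lay below both 1-cell arrays. HSD11B2 was lower in blastocysts than in 1-cell embryos, with a difference of -4.03 (SE 0.435, limma adjusted p = 0.000309), and it passed in all 23 alternatives. NADK2, the mitochondrial NAD kinase, gave 4692, 6455 and 4651 in oocytes, 5755 and 3923 in 1-cell embryos, 452, 188, 377 and 8.59 on the cleavage arrays, 356, 405 and 1037 in morulae and 611, 872 and 113 in blastocysts. 1-cell 1 lay among the oocyte arrays and 1-cell 2 just below them, and the 16-cell array was near the low end of the scale. NADK2 was lower in blastocysts, with a difference of -3.52 (SE 0.784, limma adjusted p = 0.0133), but its adjusted p was 0.0930 without 1-cell 1, 0.0636 without 1-cell 2 and 0.0610 in a fit of the compared stages alone, in a range of 0.00199 to 0.0930 over 23 alternatives.

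FAHD1, an oxaloacetate decarboxylase of mitochondria, gave 1704, 1365 and 1875 in oocytes, 871 and 692 in 1-cell embryos and 440.0, 511, 421 and 68.4 through cleavage. Morula 3 stood apart, with morulae at 133, 96.5 and 1104 and blastocysts at 344, 269 and 629. The blastocyst arrays lay below both 1-cell arrays, with a difference of -0.97 (SE 0.861, limma adjusted p = 0.519), which did not pass. NUDT3, a hydrolase of diphosphoinositol polyphosphates, gave 4256, 3038 and 2069.7 in oocytes, 2349.6 and 1628 in 1-cell embryos, 551, 175, 374 and 704 through cleavage, 2041, 1621 and 61.7 in morulae and 765, 575 and 46.4 in blastocysts. The signal of its morulae 1 and 2 was close to that of the lowest oocyte array, whereas morula 3 and blastocyst 3 were low. Its difference was -2.69 (SE 1.42, limma adjusted p = 0.248), which did not pass. With the arrays numbered 3 left out both passed, NUDT3 at an adjusted p of 0.0174 and FAHD1 at 0.0277, and NUDT3 passed with the added control RNA as a block, at 0.0446; over 23 alternatives the adjusted p ran from 0.0174 to 0.518 for NUDT3 and from 0.0277 to 0.755 for FAHD1.

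DTWD1, a tRNA-modifying enzyme in human cells, gave 857, 1373 and 1825 in oocytes, 473 and 697 in 1-cell embryos and 332, 285, 116 and 51.2 through cleavage. Morulae gave 171, 182 and 408 and blastocysts 109.9, 355 and 83.5. Each cleavage array was lower than the one before it, and all blastocyst arrays lay below both 1-cell arrays. The difference was -1.82 (SE 0.651, limma adjusted p = 0.0908), which did not pass; without blastocyst 2 the adjusted p was 0.0290, in a range of 0.0290 to 0.367. PDXDC1, named for its pyridoxal-dependent decarboxylase domain, gave 929, 766 and 357 in oocytes, 1288 and 409 in 1-cell embryos, 163, 149, 117 and 42.2 through cleavage, 212, 80.5 and 389 in morulae and 356, 342 and 138 in blastocysts. 1-cell 1 lay above all oocyte arrays and 1-cell 2 among them, and morula 3 lay above oocyte 3. The blastocyst minus 1-cell difference was -1.44 (SE 0.761, limma adjusted p = 0.247), which did not pass.

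COQ2, which attaches the side chain in coenzyme Q synthesis, gave 266, 656 and 755 in oocytes, 345 and 493 in 1-cell embryos, 94.8, 121, 51.4 and 12.4 through cleavage, 209, 137 and 19.1 in morulae and 306, 544 and 208 in blastocysts. Its blastocyst arrays overlapped those of oocytes and of 1-cell embryos, and the blastocyst mean was 0.62 below the oocyte mean, the closest of the 24. GDPD1, a phosphodiesterase that acts on lysophospholipids, gave 1330.2, 1253 and 856 in oocytes, 473 and 442 in 1-cell embryos, 166, 248, 242 and 218 through cleavage, 202, 182 and 354 in morulae and 435, 694 and 498 in blastocysts. Its cleavage arrays lay close together, below both 1-cell arrays, and the blastocyst arrays overlapped the 1-cell arrays. Blastocyst minus 1-cell differences were -0.32 (SE 0.796, limma adjusted p = 0.849) for COQ2 and 0.21 (SE 0.442, limma adjusted p = 0.819) for GDPD1, and neither passed.

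The lysosomal and vesicle transcripts were led in the test by SLC18A2, the transporter that loads monoamines into vesicles. SLC18A2 gave 975, 387 and 1762 in oocytes, 386 and 917 in 1-cell embryos, 29.4, 196, 27.5 and 5.95 through cleavage, 30.3, 18.1 and 4.06 in morulae and 28.6, 24.98 and 15.03 in blastocysts. 1-cell 1 was level with the lowest of the widely spread oocyte arrays and 1-cell 2 lay among them. The 4-cell array stood above the other cleavage arrays, and every morula and blastocyst array lay below both 1-cell arrays. It was lower in blastocysts than in 1-cell embryos, with a difference of -3.995 (SE 0.647, limma adjusted p = 0.00257) and passed in all 23 alternatives. CREG1, a glycoprotein of lysosomes that is also secreted, gave 4889, 5557 and 1642 in oocytes, 1958 and 1911 in 1-cell embryos, 262, 215, 15.5 and 5.23 through cleavage, 239, 137 and 2218 in morulae and 338, 336 and 1348 in blastocysts. Morula 3 lay above oocyte 3, and blastocyst 3 above the other blastocysts. The difference was -1.82 (SE 1.09, limma adjusted p = 0.315), which did not pass; with the arrays numbered 3 left out the adjusted p was 0.00238, in a range of 0.00238 to 0.564.

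GGH, a lysosomal hydrolase that trims folate polyglutamates, gave 1568, 737 and 273 in oocytes, 221 and 306 in 1-cell embryos, 109, 134, 87.8 and 48.8 through cleavage, 61.8, 77.4 and 68.6 in morulae and 104, 98.5 and 75.2 in blastocysts. The oocyte arrays of GGH differed widely, while its morula and blastocyst arrays lay close together and below both 1-cell arrays. Its difference was -1.36 (SE 0.614, limma adjusted p = 0.177), which did not pass; without oocyte 3 in the fit the adjusted p was 0.0477, in a range of 0.0477 to 0.505. GAA, the lysosomal acid alpha-glucosidase that breaks down glycogen, gave 1303, 235 and 2048 in oocytes, 247 and 6.91 in 1-cell embryos, 7.16, 2.11, 5.47 and 98.6 through cleavage, 37.5, 201 and 67.2 in morulae and 133, 22.1 and 957 in blastocysts. The arrays of GAA differed widely within every replicated stage, and 1-cell 2 was as low as the 2-cell array. Its difference of 1.19 (SE 1.47, limma adjusted p = 0.662) did not pass.

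HPS5, a subunit of the BLOC-2 complex that sorts cargo to lysosome-related organelles, gave 1882, 785 and 2889 in oocytes, 1821 and 1194 in 1-cell embryos, 10.2, 24.02, 27.2 and 15.8 through cleavage, 869, 646 and 52.9 in morulae and 832, 329 and 15.7 in blastocysts. Its 1-cell arrays lay within the oocyte range, all 4 cleavage arrays were low, and morula 3 and blastocyst 3 were low among their replicates. TRAPPC6B, a subunit of the TRAPP complex that tethers vesicles, gave 3553, 1982 and 1671 in oocytes, 1359 and 927 in 1-cell embryos, 13.2, 9.27, 13.6 and 484 through cleavage, 450.0, 722 and 20.4 in morulae and 691, 458 and 228 in blastocysts. Its 2-cell, 4-cell and 8-cell arrays and morula 3 were near the low end of the scale, and both 1-cell arrays lay below all oocyte arrays. Neither passed, with differences of -2.83 (SE 1.41, limma adjusted p = 0.219) for HPS5 and -1.39 (SE 1.10, limma adjusted p = 0.461) for TRAPPC6B.

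None of the signalling and turnover transcripts passed the test. IL13RA1, a receptor subunit for interleukin 13, gave 3325, 3091 and 2118 in oocytes, 729 and 1079 in 1-cell embryos, 79.2, 198, 377 and 38.1 through cleavage, 515, 291 and 1427 in morulae and 879.6, 615 and 180.2 in blastocysts. Its 1-cell mean was 1.64 below the oocyte mean and all later arrays lay below every oocyte array, while the blastocyst arrays overlapped the 1-cell arrays. GAB1, a docking adaptor of receptor tyrosine kinases, gave 555, 895 and 1224 in oocytes, 329 and 434 in 1-cell embryos, 170.3, 72.8, 109.6 and 2.41 through cleavage, 128, 162 and 5.02 in morulae and 414, 685 and 69.4 in blastocysts. Its blastocyst arrays lay on both sides of the 1-cell arrays, and its blastocyst mean was 1.55 below the oocyte mean. The differences were -0.91 (SE 0.764, limma adjusted p = 0.492) for IL13RA1 and -0.42 (SE 1.04, limma adjusted p = 0.851) for GAB1.

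MAPK8, the stress-activated kinase JNK1, gave 1384, 862 and 856 in oocytes, 779 and 443 in 1-cell embryos, 57.1, 19.3, 75.1 and 171 through cleavage, 223, 358 and 235 in morulae and 474, 243 and 112 in blastocysts. Both 1-cell arrays lay below all oocyte arrays, the 4-cell array was the lowest, and blastocyst 1 overlapped the 1-cell arrays. FBXO9, the substrate-binding subunit of an SCF ubiquitin ligase, gave 3642, 3405 and 2072 in oocytes, 2207 and 2268 in 1-cell embryos, 498, 767, 189.5 and 415 through cleavage, 1126, 1153 and 391 in morulae and 1635, 1327 and 1687 in blastocysts. Its blastocyst arrays lay below both 1-cell arrays, and their mean was 0.93 below the oocyte mean. Differences were -1.25 (SE 0.589, limma adjusted p = 0.193) for MAPK8 and -0.53 (SE 0.513, limma adjusted p = 0.557) for FBXO9.

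VCAN, NEB and TJAP1, of the 4 structural transcripts, were lower in blastocysts. VCAN encodes versican, a proteoglycan of the matrix that cumulus cells make, and gave 965, 672 and 399 in oocytes, 327 and 988 in 1-cell embryos, 56.7, 168, 54.3 and 42.9 through cleavage, 80.99, 79.7 and 72.7 in morulae and 64.5, 72.5 and 85.3 in blastocysts. Its 1-cell arrays spanned the oocyte range, and all cleavage, morula and blastocyst arrays lay below both 1-cell arrays. The difference was -2.71 (SE 0.525, limma adjusted p = 0.00655), with an adjusted p of 0.0708 without 1-cell 2, in a range of 0.00404 to 0.0708. NEB encodes nebulin, which runs along thin filaments in muscle, and gave 811, 559 and 489 in oocytes, 605 and 269 in 1-cell embryos, 164, 33.2, 39.2 and 16.1 through cleavage, 21.2, 16.99 and 52.5 in morulae and 36.8, 38.4 and 27.5 in blastocysts. Its morula and blastocyst arrays were all far below the 1-cell arrays, and the difference of -3.07 (SE 0.472, limma adjusted p = 0.00194) passed in all 23 alternatives.

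TJAP1 encodes a tight junction-associated protein and gave 909, 1509 and 506 in oocytes, 1079 and 886 in 1-cell embryos, 136, 103, 43.2 and 90.7 through cleavage, 304, 421 and 84.7 in morulae and 179, 146 and 135 in blastocysts. Its 1-cell arrays lay within the oocyte range and its blastocyst arrays close together below them. The difference was -2.56 (SE 0.659, limma adjusted p = 0.0253), but the adjusted p ran from 0.0551 to 0.133 when either 1-cell array or any 1 blastocyst array was left out, in a range of 0.00321 to 0.133 over all alternatives. BBS7, a subunit of the BBSome that carries proteins in cilia, gave 968, 406 and 483 in oocytes, 419 and 205 in 1-cell embryos, 34.8, 130.1, 46.4 and 48.6 through cleavage, 284, 118 and 21.3 in morulae and 214, 219 and 495 in blastocysts. Its cleavage arrays were below both 1-cell arrays, the blastocyst arrays overlapped the 1-cell arrays, and the difference of -0.04 (SE 0.823, limma adjusted p = 0.9896) did not pass.

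NRIP3 had the largest difference of the 24. It gave 2547, 1802 and 1791 in oocytes, 2627 and 2098 in 1-cell embryos, 423, 538, 445 and 78.5 through cleavage, 74.8, 65.8 and 90.5 in morulae and 88.2, 65.7 and 88.3 in blastocysts. The 1-cell arrays lay at or just above the oocyte level, the 2-cell, 4-cell and 8-cell arrays at an intermediate one, and the 16-cell, morula and blastocyst arrays lay close together at the bottom. NRIP3 was lower in blastocysts, with a difference of -4.62 (SE 0.386, limma adjusted p = 8.91e-05), and it passed in all 23 alternatives. TMEM168, a transmembrane protein, gave 575, 682 and 571 in oocytes, 123 and 199 in 1-cell embryos, 3.97, 4.97, 17.4 and 68.7 through cleavage, 225, 172 and 187 in morulae and 150.4, 181 and 11.97 in blastocysts. Its 2-cell and 4-cell arrays were near the low end of the scale, the morulae lay among the 1-cell arrays and just above them, and the difference of -0.83 (SE 0.728, limma adjusted p = 0.515) did not pass.

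Arrays numbered 3 stood apart in several of these transcripts. Morula 3 was at least 2 log2 units from both other morulae in 7, above them for CREG1 and FAHD1 and below them for NUDT3, TRAPPC6B, HPS5, GAB1 and COQ2. Without morula 3, NUDT3, HPS5, FBXO9 and TJAP1 did not meet the rule, and without morula 2, PDXDC1 and TMEM168 did not. Morula arrays spanned at least 2 log2 units in 12 of the 24, against 17.7% of the 2678 genes. Blastocyst arrays did so in 7 of the 24 and oocyte arrays in 3. For these last counts and for that of morula 3 no share over the 2678 was computed. The oocyte and morula arrays also chose the members, so the wide span of the morulae may come from the choice. None of these counts can thus be called particular to the 24. The morula mean was above the 16-cell array in 20 of the 24 and in 42.6% of the 2678, but the 16-cell stage had 1 array and no replicate check. Both values also chose the members, so this count cannot be set apart from the rule.

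Cumulus cells surround the oocyte, and VCAN is 1 of 34 measured markers of cumulus and granulosa cells. Of the 34, 3 were lower in blastocysts than in 1-cell embryos, 6 were higher and 25 did not pass. Among all named genes, beside which the marker counts here are to be read, 8.36% were lower and 12.7% higher. The median difference of the 34 was 0.16, beside 0.04 for all named genes. An oocyte mean of at least 9 was found in 6 of the 34. Their summed intensity was 15565 to 20028 in oocytes, 14890 and 16659 in 1-cell embryos, 8952, 14817, 17616 and 24283 through cleavage, 24096 to 25587 in morulae and 26305 to 37365 in blastocysts. A few genes carried most of it. In blastocyst 2, with the sum of 37365, COL4A1 gave 8596, PTGS2 6410, HAS2 6215, THBS1 5522 and SERPINE2 5018, while the median of the 34 was 45.3. The sum thus follows these genes rather than the 34 as a set. FSHR and CYP19A1, the receptor and the enzyme that define granulosa cells, stayed at or below 44.8 and 39.4 on every array. STAR, which brings cholesterol into mitochondria for steroid synthesis, gave 2537, 2958 and 2640.2 in oocytes and 2595 and 4462 in 1-cell embryos. It gave 1401, 3060, 4472 and 537 through cleavage, 78.02, 94.98 and 907 in morulae and 140, 202 and 83.4 in blastocysts. The 16-cell array stood at least 2 log2 units above every other array for 6 of the 34, FST, GJA1, LUM, COL1A2, VIM and CTSK, while none of the other single arrays did so for any. TNFAIP6 and PTX3 are made by cumulus cells as their matrix expands. TNFAIP6 gave 562, 70.2 and 1072 in oocytes, 2.45 and 94.7 in 1-cell embryos and 2.90, 12.3, 641 and 12.9 through cleavage. PTX3 gave 428, 416 and 20.6 in oocytes, 397 and 489.8 in 1-cell embryos and 16.3, 17.9, 16.3 and 12.25 through cleavage. The part of cumulus RNA in the VCAN result was not tested. Of 13 measured sperm markers 1 was lower and 1 higher, and of 18 blood cell markers 2 were lower. None of either had an oocyte mean of at least 9. Of 14 measured trophectoderm markers, genes of the outer epithelium of the blastocyst, 12 were higher in blastocysts, 0 were lower and 0 were members.

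**Figure D4:**
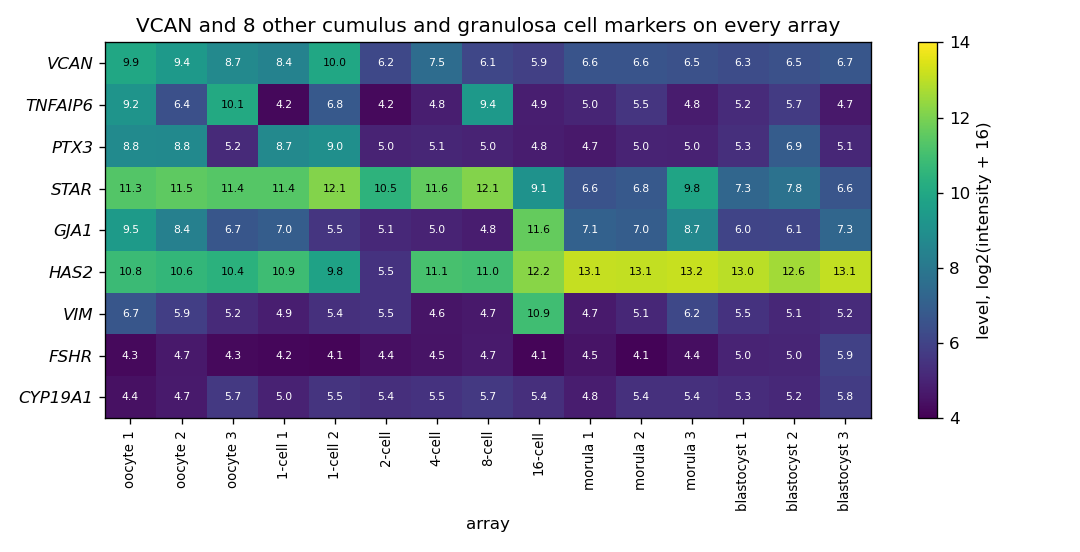
Level, log2(intensity + 16), of VCAN and 8 other cumulus and granulosa cell markers on the 15 arrays; these 9 of the 34 measured markers were picked for display after their values were seen. VCAN is high on the oocyte and 1-cell arrays, HAS2 is highest in morulae and blastocysts, and FSHR and CYP19A1 are low on all arrays.

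The other 6 gene lists held 138 distinct genes with an oocyte mean of at least 9, and 1 of these, or 0.725%, was a member, a share near the 0.896% of all 2678. Of 47 measured MAP kinase, phosphatase and growth factor genes, 1 was a member, MAPK8, and 5 were lower and 5 higher in blastocysts, with a median difference of -0.03. The 46 cell cycle genes, 39 genes of mRNA decay and translation, 34 of G protein and calcium signalling, 54 of ubiquitin transfer and removal and 49 of chromatin held no member. Among these, 6 and 3 cell cycle genes, 3 and 3 decay genes, 7 and 1 G protein and calcium genes, 9 and 3 ubiquitin genes and 6 and 11 chromatin genes were lower and higher in blastocysts, in that order. Their medians were -0.20, -0.38, 0.05, -0.18 and 0.06, beside 0.04 for all named genes. Of all named genes 8.36% were lower and 12.7% higher. FBXO9 was not on the ubiquitin list.

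The threshold of 1.5 parted genes that lay close together. The members nearest to it had smallest distances below the oocyte mean of 1.65 for PDXDC1, 1.65 for FAHD1 and 1.57 for TMEM168, and the genes just outside had 1.46 for IL1R1, 1.36 for CEP290 and 1.35 for MTMR1. ELOVL7, with an oocyte mean of 8.96, missed the level of 9. The median smallest distance of the 24 was 2.04 and the highest 3.25. Of the 24, 15 had 1 named probe set, and the other 9 had 12 further probe sets, none of which met the rule. Only 2 of the 12 had an oocyte mean of at least 9. The second FBXO9 probe set gave 480.3, 2195 and 169.9 in oocytes and 3774 and 6212 in 1-cell embryos, so it differed in pattern, and its blastocyst minus 1-cell difference of -2.75 did not pass (limma adjusted p = 0.0898). The second VCAN probe set lay 1.03 to 5.17 below its oocyte mean from the 2-cell stage to the morula and was lower in blastocysts than in 1-cell embryos, with a difference of -3.99 (limma adjusted p = 0.0002495). A further VCAN probe set had a low oocyte mean of 5.96, and its difference of -0.48 did not pass (limma adjusted p = 0.317).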

How the data were processed

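Total RNA was amplified in 3 rounds and hybridized to Affymetrix bovine arrays, per the labels. The table the authors deposited holds linear intensity values of 24128 probe sets for 15 arrays, which were used unchanged. How probes were summarised and arrays scaled, and the software, is not given in the sources used here. Array medians ran from 39.7 to 61.7 and means from 557.6 to 716.7. After 112 control probe sets were left out, 24016 were kept with no filter on low values. The level was log2(intensity + 16), a scale that understates differences of low signals. Names came from the platform annotation, updated through the RefSeq gene table: 13292 probe sets had 1 symbol, 86 several and 10638 none, and 9155 genes were named. Sample titles gave the groups and the replicate numbers.

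The test was limma 3.58.1 in R 4.3.3: a mean for each of 8 stages on all 15 arrays, a variance trend on intensity, and Benjamini-Hochberg adjustment over 24016 probe sets at 0.05, with 7 residual degrees of freedom from the 4 replicated stages. The same fit was also run on simulated data with independent noise on each array, which lack the differences between arrays of 1 stage described above. No result of that run is given here. P-values reflect only how far these arrays spread, and the number of arrays limits the precision. The transcripts and gene lists were chosen with earlier results of these data known. The rule for named genes named all members, since they were under 40, plus the 3 genes just outside the threshold. Alternatives were quantile normalization, median centring, pseudocounts of 1 and 64, a filter on the lowest probe sets, all probe sets of a gene averaged, other variance models, only the compared stages, the spike-in class within or as a block, the replicate number as a block, and each replicate left out in turn. Leaving out the arrays numbered 3, using oocyte 3 and morula 3 alone, choosing the probe set without the 1-cell and blastocyst arrays, leaving the 16-cell array out of the rule, and the 4 replicated stages without the block were chosen after seeing the data. Promoter motifs were not analysed here, and coordinates were not used. Tables and figures were made with Python 3.11.15 and matplotlib 3.10.9.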

Additional observations from a re-analysis of the deposited data

How the results depend on the processing

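Each transcript's blastocyst minus 1-cell difference was recomputed in 23 settings, giving 552 values. Of these, 525 kept their direction and side of the threshold, 9 lost and 6 gained the call, 12 changed sign while uncalled and 0 reversed a call. HSD11B2, NEB, NRIP3 and SLC18A2 passed in all. The count of transcripts lower in blastocysts was 4 to 8 with 1 replicate left out, the 4 being without 1-cell 2. The count meeting the rule was 21 to 44 with 1 replicate left out, the 44 being without oocyte 3. It was 38 without the arrays numbered 3 and 71 with oocyte 3 and morula 3 alone, both chosen after seeing the data, and 17 to 31 under the other settings. The count with both 1-cell arrays at least 1.5 below the oocyte mean was 1 with a pseudocount of 64 and 1 to 4 with 1 replicate left out. The cause was not tested. Of all named genes, 765 were lower and 1160 higher in blastocysts; these counts were 1287 and 1869 without the arrays numbered 3, 458 and 706 without 1-cell 1, and 351 and 584 without 1-cell 2.

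Deviations of same-numbered arrays correlated at 0.106 to 0.306 in the 9 pairs among oocytes, morulae and blastocysts, but at 0.155 and -0.0902 in the 2 pairs of 1-cell and blastocyst arrays, so the numbers were not read as pairs in this comparison. With the replicate number as a block, 7 of the 24 were lower in blastocysts and 0 higher, and 7 and 0 without the block in the same 4 stages. Stages with 1 array have no replicate check, and no detection call was used, so low signals have no stated limit of background.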

Other observations

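Probe sets without a gene name were not among the 24 genes. Of 1460 unnamed probe sets with an oocyte mean of at least 9, 28 met the same rule, and 7 of these were lower in blastocysts than in 1-cell embryos by limma while 0 were higher. Of the 2678 named genes with such an oocyte mean, 18.9% were lower and 8.03% higher. No share over the 1460 was computed, so the counts of 7 and 0 cannot be called particular to the 28. The 28 were not matched to genes here.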
